A study of Mus musculus with 8 samples.

Results

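The genes next to Cacna1h on mouse chromosome 17 were followed across the left hippocampi of Cav3.2 knockout and wild-type mice, naïve or trained. Cacna1h encodes the pore-forming subunit of Cav3.2, a T-type calcium channel that opens at low voltage. The list named 9 genes around it, and every probe of the array whose annotated symbol was 1 of these names and that had a value on all arrays was taken. This gave 10 probes of 8 genes, out of 16588 probes with values and 11147 named genes. Baiap3, a relative of the Munc13 proteins of vesicle release, had no annotated probe and was dropped. Gnptg kept 2 of its 3 probes, Unkl 2 of 3 and Mapk8ip3 1 of 2, and each of the other genes was read by its only probe.

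The 4 groups compared were male C57BL/6 mice aged 6 to 8 weeks. KTL and KNL were trained and naïve mice without Cacna1h (allele tm1Kcam), and WTL and WNL were trained and naïve wild-type mice. The study calls the wild types littermates, while its methods also speak of purchased C57BL/6J wild-type males. Training was trace fear conditioning, in which a tone and a foot shock are separated by a silent gap, followed by a contextual memory test, after which the mice were sacrificed at once. Each group was measured on 2 arrays, 8 arrays in total, with RNA pooled from 3 mice. The methods speak of averaged technical replicates, and whether a group's deposited arrays came from separate pools is not made clear in the sources used here, so the p-values measure only the spread between these arrays, which may be technical. The knockout is a germline deletion carried by all cells, and the line was crossed to C57BL/6 for several generations. Genes close to a targeted locus are inherited together with it, so an effect of alleles brought along with the deletion and an effect of losing Cav3.2 cannot be told apart in this design. The strain of the targeted cells is not given in the sources used here.

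All of the described genes lie on the same side of Cacna1h. In the order of protein-coding genes of the RefSeq table, counted from Cacna1h as place 0, Gnptg had place -9, Unkl -10, Clcn7 -14, Telo2 -16, Mapk8ip3 -21, Eme2 -24, Tsc2 -45 and Pkd1 -46. They work in different processes. Clcn7 acts in the lysosome, the acid compartment in which cells break down proteins, lipids and sugars, and Gnptg in marking the enzymes that are sent there. Tsc2 and Telo2 act in growth control and in the stability of large kinases, Mapk8ip3 in transport along axons, Eme2 in DNA repair and Pkd1 in the primary cilium. Neurons depend on lysosomes and on axonal transport, and mice that lack Clcn7 are known to lose neurons.

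The reference sequence around the gene starts is shown for the genes on which the results turn, Clcn7, Eme2 and Unkl, and for Gnptg as the other gene of lysosome function. For a gene with several windows the first listed is shown. The windows hold the 250 bases before and the 50 bases after a start, from RefSeq on build GRCm38.p6, in the direction of the gene. Capitals mark CACGTG, the core of the E-box known from lysosomal genes, and CCGGAAG, a core of the sites of ETS factors, searched on both strands (CTTCCGG is CCGGAAG read on the other strand). The windows lie at chr17:25133141-25133440 on the plus strand for Clcn7, chr17:25240091-25240390 on the minus strand for Gnptg, chr17:24895038-24895337 on the minus strand for Eme2 and chr17:25188147-25188446 on the plus strand for Unkl.
Clcn7: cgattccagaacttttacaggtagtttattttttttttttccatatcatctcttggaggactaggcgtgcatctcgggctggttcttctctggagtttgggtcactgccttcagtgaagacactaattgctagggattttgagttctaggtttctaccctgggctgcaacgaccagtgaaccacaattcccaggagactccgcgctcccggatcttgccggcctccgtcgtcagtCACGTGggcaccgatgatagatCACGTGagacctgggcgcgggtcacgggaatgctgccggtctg
Gnptg: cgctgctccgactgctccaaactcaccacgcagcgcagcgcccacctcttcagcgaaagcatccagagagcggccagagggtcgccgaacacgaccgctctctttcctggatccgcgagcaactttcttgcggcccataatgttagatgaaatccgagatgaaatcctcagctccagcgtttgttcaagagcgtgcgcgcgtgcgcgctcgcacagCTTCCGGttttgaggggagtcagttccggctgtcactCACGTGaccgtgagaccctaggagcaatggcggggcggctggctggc
Eme2: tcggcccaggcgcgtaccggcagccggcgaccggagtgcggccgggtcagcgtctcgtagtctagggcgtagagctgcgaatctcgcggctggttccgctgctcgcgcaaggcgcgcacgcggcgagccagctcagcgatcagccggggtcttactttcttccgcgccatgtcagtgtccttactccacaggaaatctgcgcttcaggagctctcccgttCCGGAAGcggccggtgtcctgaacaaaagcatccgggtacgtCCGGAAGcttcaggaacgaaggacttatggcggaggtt
Unkl: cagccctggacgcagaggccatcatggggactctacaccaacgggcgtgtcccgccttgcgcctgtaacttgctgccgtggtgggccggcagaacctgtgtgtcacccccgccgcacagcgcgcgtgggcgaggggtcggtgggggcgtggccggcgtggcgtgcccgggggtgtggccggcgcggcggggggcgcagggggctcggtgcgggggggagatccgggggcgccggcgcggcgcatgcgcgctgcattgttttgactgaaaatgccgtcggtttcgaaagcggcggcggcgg
The Clcn7 window held CACGTG at 2 places, beginning 15 bases before and 7 bases after the start, and the Gnptg window held it once, 3 bases after the start. Of 32851 windows in the table, 7.15% held CACGTG and 0.594% held it 2 or more times. All of the 8 measured genes had a window, and 3 of them held CACGTG in at least one, with Telo2 as the third. CCGGAAG stood in windows of 4 genes, Eme2, Gnptg, Mapk8ip3 and Tsc2, and in 8.86% of all windows. Eme2 and Tsc2 each held it 2 times, and 1.48% of all windows held it 2 or more times. A gene was counted if any of its windows held the string, while the shares are of single windows. The other window of Clcn7, not shown, held no CACGTG. The Unkl window held neither string and was rich in G and C (74.0%, against 52.7% for Clcn7). These are letters of the reference genome. The alleles of these mice were not sequenced, and no factor was measured.

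Each probe and array has 1 deposited intensity, on a linear scale, and these are the values given per array. Changes are log2 differences after values under 100 were set to 100 and the arrays were quantile normalized, tested with limma over 8 arrays, with Benjamini-Hochberg adjustment of p across the 16588 probes. A call required a change over 2-fold with an adjusted p below 0.01. Pearson's r between the 2 arrays of a group ran from 0.979 to 0.993 on the log2 scale. The KNL arrays stood apart. They correlated at 0.852 to 0.938 with arrays of other groups, which correlated among each other at 0.968 to 0.985, and 20.4% of all probes were called in KNL vs WNL, against 0.0241% in KTL vs WTL. Results on KNL are therefore set beside KTL vs WTL, whose change is taken between other arrays. The KNL arrays still enter the normalization and the shared spread, and so the SE and p of KTL vs WTL. The labelled tissue was checked with 5 markers of hippocampal excitatory neurons, all measured, whose summed intensity was 16855 to 16999 in KNL and 19403 to 19902 in WNL, and 19429 to 20388 in KTL and 19750 to 20137 in WTL. Of these markers Neurod6 and Prox1 were called lower in KNL than in WNL (-3.19 and -1.81), and they were at 0.0073 and 0.20 in KTL vs WTL. Camk2a, Slc17a7 and Wfs1 were not called in KNL vs WNL (0.10, -0.066 and -0.75). The summed intensity of 3 markers of oligodendrocytes was 25507 to 28388 in KNL and 43514 to 45658 in WNL, and 43556 to 44356 in KTL and 41371 to 42380 in WTL. That of 4 markers of microglia was 2644 to 2956 in KNL and 4583 to 4719 in WNL, and 3777 to 4041 in KTL and 3773 to 3788 in WTL. The sums of 4 markers of interneurons were 32949 to 34744 in KNL and 43376 to 47374 in WNL, and 42369 to 43743 in KTL and 38717 to 39516 in WTL. Those of 3 markers of astrocytes were 11848 to 13177 in KNL and 16785 to 17710 in WNL, and 16976 to 17500 in KTL and 15704 to 17803 in WTL. These lists were thus lower in KNL than in WNL without overlap, while the sums of 4 endothelial markers (4245 to 4295 in KNL and 2989 to 3510 in WNL, and 2842 to 3166 in KTL and 3468 to 3863 in WTL) and of 3 striatal markers (1756 to 1953 in KNL and 1168 to 1392 in WNL, and 1207 to 1395 in KTL and 1253 to 1489 in WTL) were higher in KNL than in WNL. A sum follows its brightest markers, and the median change in KNL vs WNL was 0.0093 for the oligodendrocyte list and -0.16 for the endothelial list. Their part in the results on KNL was not tested.

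Cacna1h itself read 1929 and 1377 in KNL, against 2732 and 2985 in WNL. In trained mice it read 1171 and 1395 in KTL and 2836 and 1838 in WTL. The probe thus kept a signal in the knockout that was lower by 0.81 in KNL (log2, SE 0.25, adjusted p = 0.0303) and by 0.84 in KTL (SE 0.25, adjusted p = 0.19), and neither was called. It is not known here if the probe falls in the deleted part, so its level is no check of the deletion.

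**Figure D1:**
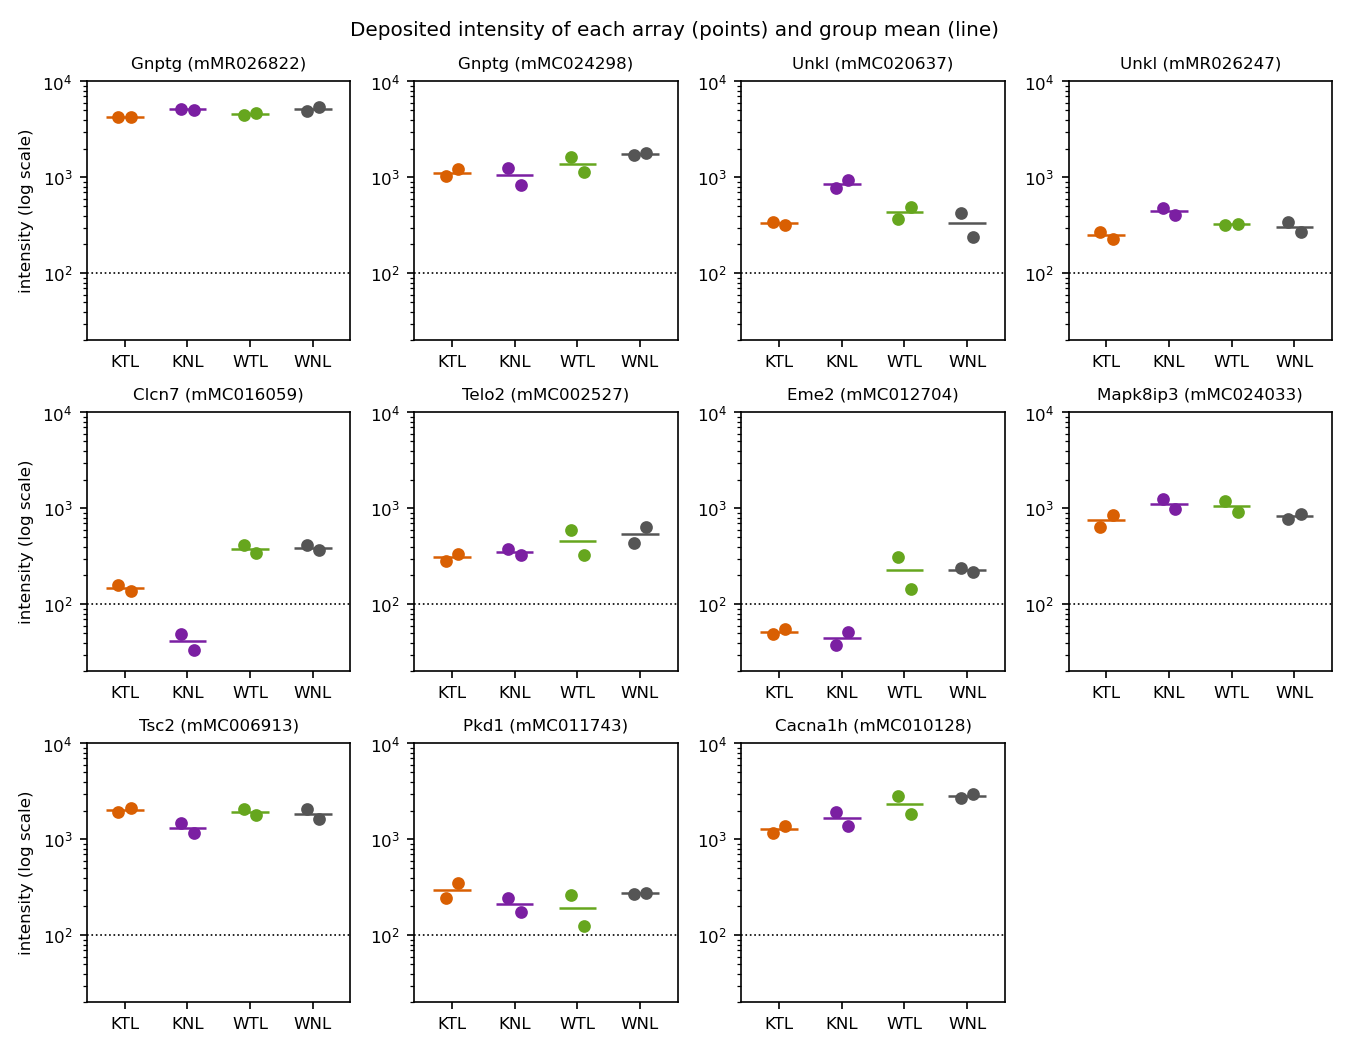
Deposited intensity (log axis) of the 10 probes and of Cacna1h in KTL, KNL, WTL and WNL. Points are arrays, 2 per group, lines are group means, and the dotted line is the floor of 100. Among the 10 probes, all knockout arrays lie below all wild-type arrays in the panels of Clcn7 and Eme2.

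Clcn7 had the largest genotype difference among the 10 probes, and it was lower in the knockout both in naïve and in trained mice, which were separate animals. It encodes ClC-7, which exchanges chloride for protons across the lysosomal membrane. In naïve mice it read 49.2 and 33.8 in KNL, against 412 and 371 in WNL. In trained mice it read 160 and 137 in KTL, against 421 and 343 in WTL. No knockout array reached the lowest wild-type array, and both KNL arrays were below the floor.

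At the floor Clcn7 was at least 3.91-fold lower in KNL than in WNL (log2 -1.97, SE 0.14, adjusted p = 0.000229). In trained mice it was 2.57-fold lower in KTL than in WTL (log2 -1.36, 95% confidence interval -1.71 to -1.01). The adjusted p of 0.0365 there did not pass the threshold for a call, and the probe had the 24th smallest p of all probes in that comparison. Its SE is shared with the naïve comparison, and the KNL arrays, both set to the floor, added no spread to it. Under the alternative settings the change in KTL vs WTL ran from -1.51 to -0.93, and none gave an adjusted p below 0.01. Over naïve and trained mice together the change was -1.66 (SE 0.10, adjusted p = 0.000631), which was called. Hippocampal RNA comes from a mixture of cells, so fewer cells of a type and less RNA per cell cannot be told apart for this or any other gene here.

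Trained and naïve mice were then compared within each genotype for Clcn7. KTL was at least 1.48-fold higher than KNL (log2 0.56, adjusted p = 0.016, not called), while WTL differed from WNL by -0.04 (95% confidence interval -0.39 to 0.31). The test of the difference, the interaction of genotype and training, gave 0.61 (SE 0.20, adjusted p = 0.0448), which was not called. This value is bounded by the floor. With no floor it was 1.90 (adjusted p = 0.00356), and with a floor of 200 it was 0.04.

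Eme2 was the other gene with all knockout arrays below all wild-type arrays. In human cells EME2 is a partner of the nuclease MUS81, which cuts branched DNA at stalled replication forks. It read 37.5 and 51.6 in KNL, against 240 and 218 in WNL. With training it read 48.8 and 54.7 in KTL, against 313 and 146 in WTL. All 4 knockout arrays were thus below the floor, and all 4 wild-type arrays above it.

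Eme2 was at least 2.29-fold lower in KNL than in WNL (log2 -1.19, SE 0.32, adjusted p = 0.0187) and at least 2.14-fold lower in KTL than in WTL (log2 -1.10, SE 0.32, adjusted p = 0.185). Over both states it was at least 2.21-fold lower (adjusted p = 0.0141). None of these was called by limma over all 8 arrays at the floor of 100. The call depended on the floor, the normalization, the test and the arrays in the fit. The knockout arrays of Eme2, all set to the floor, added no spread to these SEs. Of the wild-type pairs WTL lay further apart (313 and 146) than WNL (240 and 218). Tests on the naïve arrays alone, SAM among them, and fits without a WTL array leave out the spread between the WTL arrays. With a floor of 200 the change was only -0.19 in naïve mice (limma adjusted p = 0.541) and -0.26 over both states (adjusted p = 0.313). The limma test against a 1.5-fold change gave adjusted p = 0.192 and 0.519. Leaving out a WNL, KNL or KTL array brought no call. With no floor limma called the change over both states (-2.21, adjusted p = 0.00157) and the one in naïve mice (-2.38, adjusted p = 0.00152), and after cyclic loess in place of quantile normalization it also called both (-1.24, adjusted p = 0.00732, and -1.37, adjusted p = 0.00847). At the floor of 100 the change in naïve mice was called by Significance Analysis of Microarrays (SAM), the test of the study's methods, by limma on the 4 naïve arrays alone (adjusted p = 0.00625) and by limma without either WTL array (adjusted p = 0.00084). KTL and KNL were both at the floor, and WTL was at -0.10 relative to WNL (95% confidence interval -0.87 to 0.68). The interaction was 0.10 (95% confidence interval -0.996 to 1.19).

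All knockout arrays lay below all wild-type arrays for 2 of the 10 probes, and for 3.62% of all probes, and above them for 0 of the 10, and for 4.61% of all probes. These shares were counted on deposited intensities with no floor, so the order of values under 100 enters them. A change below -1 on the log2 scale in both KNL vs WNL and KTL vs WTL was found for 21 of 16588 probes (0.127%), and Clcn7 and Eme2 were 2 of these. They are counted here as a description, since the genes were chosen with earlier results of these data known.

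**Figure D2:**
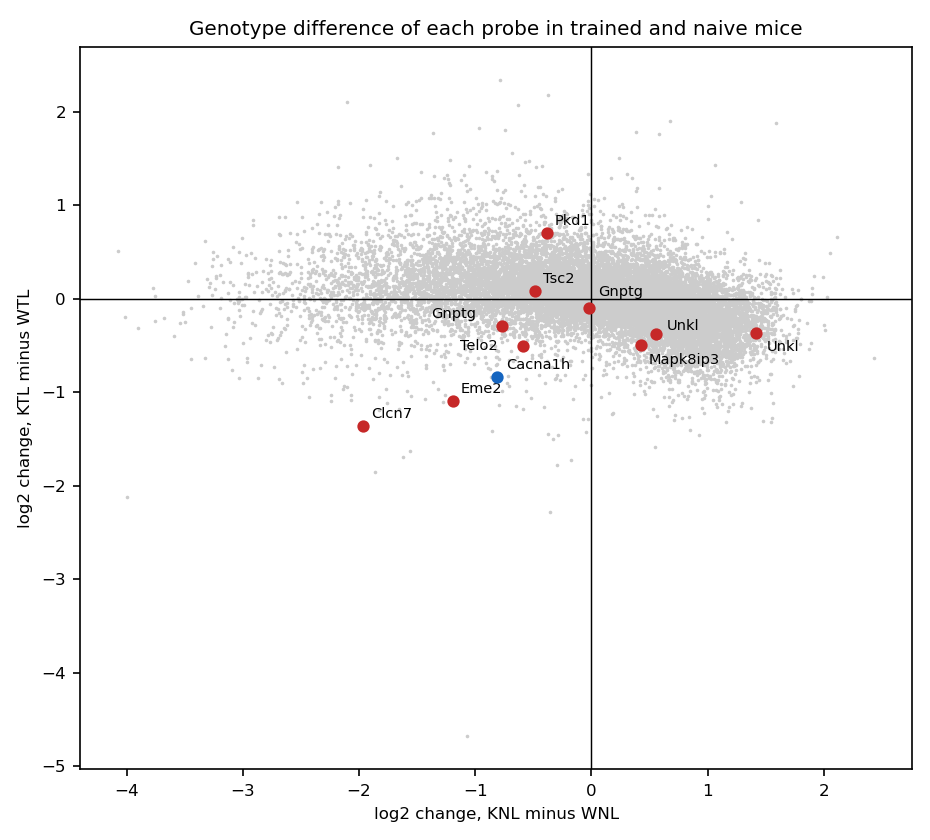
Log2 change of each of the 16588 probes with values in naïve mice (KNL minus WNL, horizontal axis) and in trained mice (KTL minus WTL, vertical axis). Red points are the 10 probes of the described genes, the blue point is Cacna1h, and Clcn7 at -1.97 and -1.36 lies at the lower left edge of the grey cloud.

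The summed intensity of markers of the choroid plexus, the tissue that makes cerebrospinal fluid and lies beside the hippocampus, was also lower on every knockout array than on every wild-type array. All 6 markers of this list were measured. The sum, most of it Ttr, was 13505 to 17251 in KNL and 52638 to 53777 in WNL, and 18959 to 19967 in KTL and 38978 to 41869 in WTL. In KNL vs WNL Ttr was called lower (log2 -2.07) and was at -1.03 in KTL vs WTL (adjusted p = 0.0711). No other marker was called in KNL vs WNL, where Kcne2 was at -0.30, Folr1 at -0.33, Clic6 at -0.38, Otx2 at -0.77 and Igfbp2 at 0.51 (adjusted p = 0.0126). In KTL vs WTL Kcne2 was called lower (log2 -1.78), and the other markers were between -1.50 and -0.88. The sum of the 5 markers without Ttr was 3412 to 3514 in KNL and 3573 to 3960 in WNL, and 1517 to 1530 in KTL and 3614 to 3738 in WTL, so the lower sum in naïve mice was carried by Ttr. No marker of the list was at 0. The part of choroid plexus tissue in the results on Clcn7 and Eme2 was not tested.

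Gnptg, the other gene of lysosome function, was not called by either of its probes. It encodes a subunit of the enzyme that begins the mannose 6-phosphate tag, by which new hydrolases are sent to the lysosome. Its brighter probe (mMR026822) read 5216 and 5013 in KNL, against 4926 and 5434 in WNL, and 4260 and 4276 in KTL, against 4512 and 4653 in WTL. The genotype difference was -0.02 in naïve mice (95% confidence interval -0.26 to 0.23) and -0.10 in trained mice (95% confidence interval -0.34 to 0.14). Its other probe (mMC024298) read 1263 and 838 in KNL, against 1722 and 1791 in WNL, and 1036 and 1214 in KTL, against 1643 and 1146 in WTL. That probe changed by -0.77 in naïve mice (SE 0.25, adjusted p = 0.0334) and by -0.29 in trained mice (adjusted p = 0.575), so the probes disagreed in the size of the change.

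Unkl, next to Gnptg, was higher in the naïve knockout than in all other groups by both of its probes. It encodes a zinc finger protein of the unkempt family. The probe mMC020637 read 770 and 944 in KNL, against 427 and 239 in WNL, and 345 and 321 in KTL, against 372 and 492 in WTL. It was 2.67-fold higher in KNL than in WNL (log2 1.42, SE 0.29, adjusted p = 0.00672), which was called, and changed by -0.36 in KTL vs WTL (adjusted p = 0.546). KTL was 2.56-fold lower than KNL (log2 -1.36, adjusted p = 0.00822), also called.

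The probe mMR026247 of Unkl read 482 and 410 in KNL, against 340 and 270 in WNL, and 269 and 230 in KTL, against 320 and 328 in WTL. The knockout was above the wild type on every naïve array and below it on every trained array. Its changes had the same signs as those of the first probe and were smaller, 0.56 in KNL vs WNL (adjusted p = 0.0225), -0.38 in KTL vs WTL (adjusted p = 0.284) and -0.84 in KTL vs KNL (adjusted p = 0.00549), none over 2-fold. The interaction of genotype and training was -1.78 for the first probe (SE 0.41, adjusted p = 0.013) and -0.94 for the second (SE 0.22, adjusted p = 0.0148). KNL vs WNL, KTL vs KNL and the interaction all use the KNL arrays, and 53.3% of all probes had an interaction at an adjusted p under 0.05. The call in KNL vs WNL was lost without WNL replicate 2, where the change was 0.997, and on leaving out either KNL or either KTL array (1.27 to 1.56). It was also lost with limma on the 4 naïve arrays (adjusted p = 0.0313), a floor of 200 (0.0265), the test against 1.5-fold (0.0724) and the replicate block (0.0133). The call in KTL vs KNL was lost on leaving out any KNL, KTL or WTL array (-1.50 to -1.21), with a floor of 200, in the test against 1.5-fold and with the block, and the interaction was called without WNL replicate 1 (-2.20, adjusted p = 0.00769).

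Telo2, part of a complex that keeps kinases such as mTOR and ATM stable, read 377 and 323 in KNL, against 432 and 641 in WNL. The trained groups read 284 and 337 in KTL, against 591 and 327 in WTL. The naïve groups did not overlap and the trained groups did. Its change was -0.59 in KNL vs WNL (SE 0.31, adjusted p = 0.142) and -0.51 in KTL vs WTL (SE 0.31, adjusted p = 0.439), and the 95% confidence interval of each, -1.35 to 0.16 and -1.26 to 0.25, held both 0 and a 2-fold fall.

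Tsc2 encodes tuberin, which with Tsc1 restrains the growth kinase mTORC1. It read 1474 and 1175 in KNL, against 2083 and 1636 in WNL. Trained arrays read 1950 and 2118 in KTL, against 2069 and 1778 in WTL. KNL was the lowest group and the others overlapped. The change was -0.49 in KNL vs WNL (SE 0.18, adjusted p = 0.0487), 0.08 in KTL vs WTL (95% confidence interval -0.34 to 0.51) and 0.63 in KTL vs KNL (adjusted p = 0.0217), none of them called.

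Pkd1, next to Tsc2, encodes polycystin-1, a large membrane protein of the primary cilium. It read 247 and 177 in KNL, against 271 and 276 in WNL, and 246 and 355 in KTL, against 263 and 125 in WTL. Its change was -0.39 in naïve mice (adjusted p = 0.389) and 0.70 in trained mice (adjusted p = 0.374). The SE of 0.37 was the largest among the 10 probes.

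Mapk8ip3 encodes JIP3, a scaffold of the JNK kinases that also links cargo to kinesin in axons. It read 1252 and 989 in KNL, against 777 and 884 in WNL. In trained mice it read 647 and 851 in KTL, against 1200 and 915 in WTL. Neither pair of groups overlapped, and the signs were opposite. Its change was 0.42 in KNL vs WNL (SE 0.21, adjusted p = 0.12) and -0.50 in KTL vs WTL (SE 0.21, adjusted p = 0.29). The interaction was -0.92 (SE 0.30, adjusted p = 0.0388), which was not called.

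**Figure D3:**
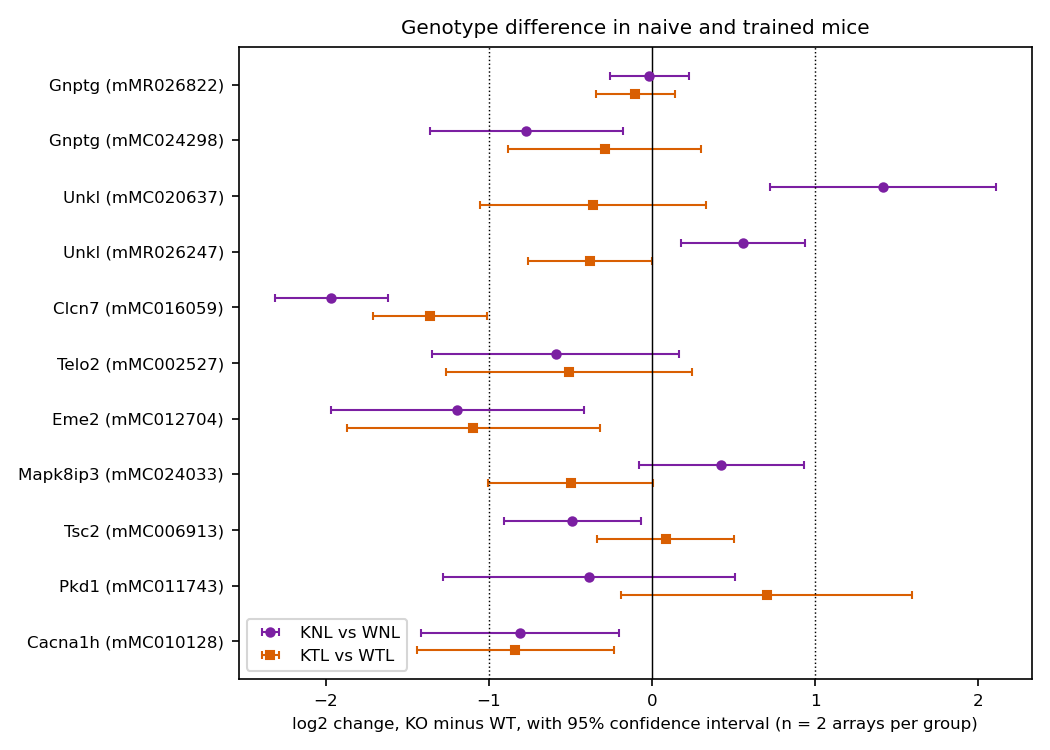
Log2 change between knockout and wild type for the 10 probes and Cacna1h, in naïve mice (KNL vs WNL, circles) and trained mice (KTL vs WTL, squares), with 95% confidence intervals from limma and 2 arrays per group. Dotted lines mark 2-fold. The intervals of Clcn7 lie wholly below -1 in both comparisons, and those of both Unkl probes lie above 0 only in naïve mice.

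Counted together, 2 of the 10 probes were called in KNL vs WNL, Clcn7 lower and Unkl higher, where 20.4% of all probes were called (13.5% lower and 6.93% higher). The median change of the 10 probes was -0.44 and that of all probes 0.16. In KTL vs WTL limma called 0 of 10, as did SAM, against 0.0241% of all probes, and 3 of 10 had an unadjusted p under 0.05, as had 2898 of all probes. The median there was -0.37, against 0.00 for all probes. Over naïve and trained mice 1 of 10 was called, Clcn7 lower, against 2.88% of all probes (2.83% lower). At an adjusted p under 0.05 and any fold, 6 of 10 passed in KNL vs WNL, against 60.7% of all probes, and 1 of 10, Clcn7, in KTL vs WTL, against 0.301%. The share in KNL vs WNL was near that of all probes.

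Both KNL arrays lay below both WNL arrays for 6 of the 10 probes, against 36.2% of all probes, and above them for 3, against 47.7%. Both KTL arrays lay below both WTL arrays for 6, against 25.3% of all probes, and above them for 0, against 26.6%. These shares, too, were counted on deposited intensities with no floor. The probes that were lower without overlap in both comparisons were those of Clcn7 and Eme2. Gnptg (mMC024298), Telo2, Tsc2 and Pkd1 were lower without overlap only in naïve mice. Gnptg (mMR026822), both probes of Unkl and Mapk8ip3 were so only in trained mice. By the sign of the change alone, Telo2 (-0.59 in naïve and -0.51 in trained mice) and both probes of Gnptg were also lower in both comparisons.

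Trained and naïve mice were compared for the same probes. In KTL vs KNL 1 of the 10 probes was called, Unkl lower, where 20.1% of all probes were called (7.5% lower). In WTL vs WNL limma called 0 of 10 and 0% of all probes, with 0 of 10 and 2506 of all probes at an unadjusted p under 0.05 and 0 of 10 called by SAM, and the changes of the 10 probes ran from -0.59 for Pkd1 to 0.42 for Unkl. In KTL vs WNL, the trained knockout against the naïve wild type, 0 of 10 were called by limma and by SAM, against 0.0422% of all probes. In that comparison 5 of 10 had an unadjusted p under 0.05, as had 1913 of all probes. Clcn7 was lowest there, at -1.40 (adjusted p = 0.0468), and Eme2 was at -1.19 (adjusted p = 0.252). For the interaction limma called 0 of 10, where 21.8% of all probes were called, and 4 of 10 had an unadjusted p under 0.05, as had 10096 of all probes.

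The genes around these were read next, each by its brightest probe. Within 25 places of Cacna1h on either side, 43 genes other than those described were listed and 24 were measured. Limma called 0 of the 24 in KNL vs WNL (14 at an unadjusted p under 0.05, 1 called by SAM), 0 in KTL vs WTL (5 at an unadjusted p under 0.05, 0 by SAM) and 0 over both states (4 at an unadjusted p under 0.05). Of all 16588 probes, 10996, 2898 and 7328 were at an unadjusted p under 0.05 in the same order. SAM called 4104 of all probes in KNL vs WNL. Spsb3, at place -25 beside Eme2, was the only one of them with all knockout arrays below all wild-type arrays. It read 575 and 502 in KNL, against 605 and 617 in WNL, and 398 and 413 in KTL, against 689 and 635 in WTL, and changed by -0.45 over both states (SE 0.08, adjusted p = 0.01). Spsb3 was singled out after its values were seen.

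Within 50 places 60 of 91 other genes were measured. In KNL vs WNL 5 of them were called, all lower (8.33%, against 13.5% of all probes lower and 20.4% in either direction), and SAM called 8. In KTL vs WTL limma and SAM called 0 of 60, with 14 at an unadjusted p under 0.05, as had 2898 of all probes. Over both states limma called 1 (1.67%, against 2.88% of all probes). This was Ndufb10, a subunit of respiratory complex I at place -34, named after its values were seen. It read 205 and 140 in KNL, against 1418 and 1609 in WNL, and 848 and 826 in KTL, against 1288 and 1104 in WTL. Its change was -3.16 in naïve mice (adjusted p = 0.000164) and -0.51 in trained mice (adjusted p = 0.263). Within 200 places on each side, 185 genes were measured, and 11.4% were called in KNL vs WNL, against 20.4% of all probes. In KTL vs WTL limma called 0 and SAM 1, and 49 had an unadjusted p under 0.05, as had 2898 of all probes. Over both states limma called 4 of the 185, 2 lower and 2 higher (2.16%, against 2.88% of all probes). In these windows all knockout arrays lay below all wild-type arrays for 1 of 24, 2 of 60 and 6 of 185 genes, against 3.62% of all probes. All knockout arrays lay above all wild-type arrays for 0 of 24, 6 of 60 and 17 of 185, against 4.61%.

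**Figure D4:**
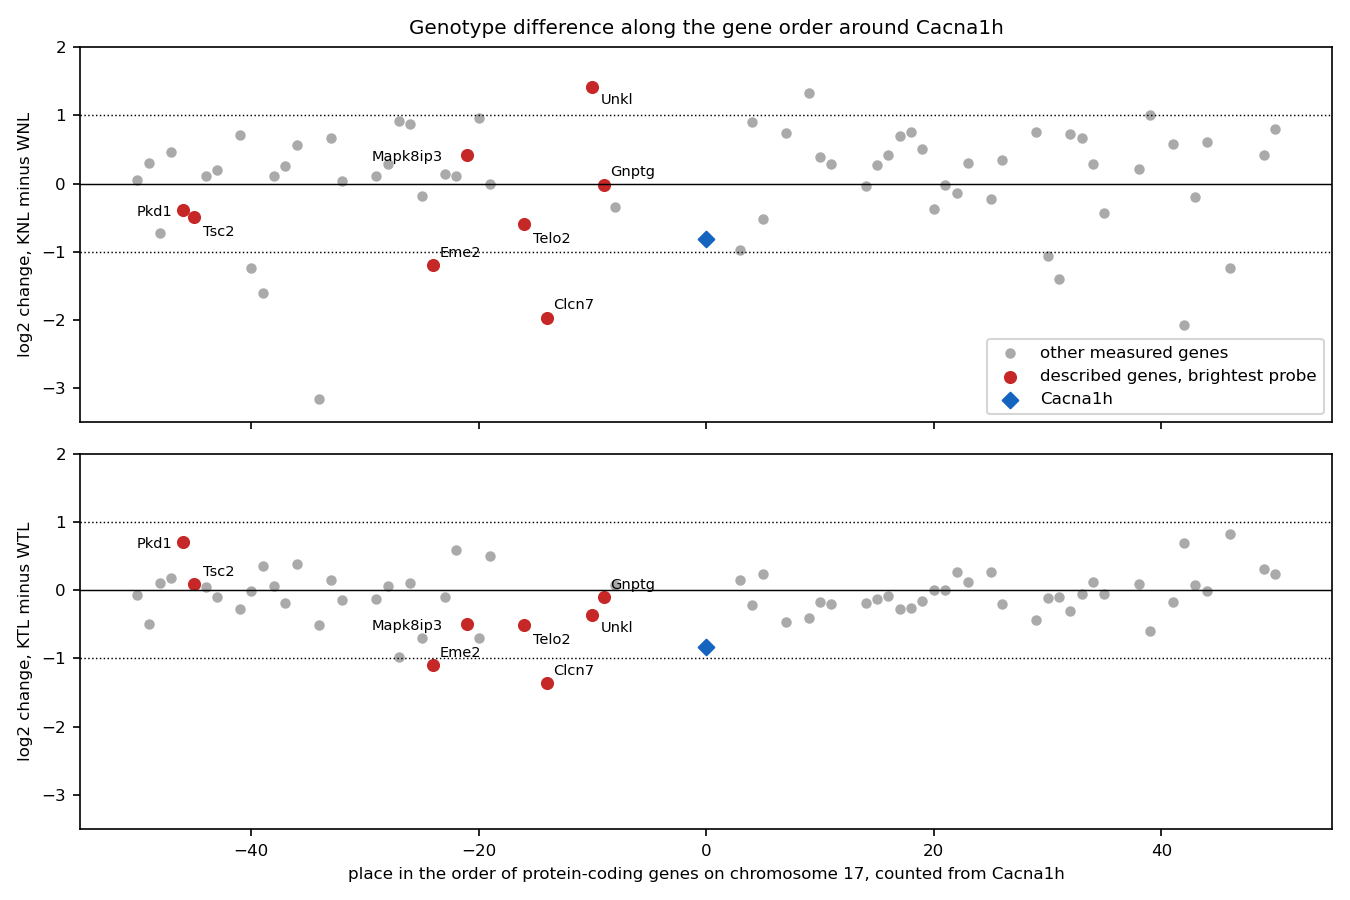
Log2 change of every measured gene within 50 places of Cacna1h in the order of protein-coding genes on chromosome 17, for KNL minus WNL (top) and KTL minus WTL (bottom). Each point is the brightest probe of a gene, red for the described genes and blue for Cacna1h, and dotted lines mark 2-fold. Clcn7 and Eme2 lie below -1 in both panels.

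Genes known to work with the described ones were read from lists by role. Of 52 such genes 46 were measured, and in KNL vs WNL 6 were called lower and 2 higher (8 of 46, against 20.4% of all probes). In KTL vs WTL 0 of 46 were called by limma and by SAM, and 6 had an unadjusted p under 0.05, as had 2898 of all probes. The median change was -0.13 in naïve mice and -0.04 in trained mice.

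Among the 12 genes of the TSC and mTORC1 pathway, all measured, 3 were called lower in KNL than in WNL, where 13.5% of all probes were called lower. These were Tsc1, the partner of Tsc2 (-1.81, adjusted p = 0.000206), Rraga, a GTPase that brings mTORC1 to the lysosome (-3.68, adjusted p = 0.00128), and Ddit4, an inhibitor of mTORC1 (-1.63, adjusted p = 0.000375). Of 7 measured genes of the Telo2 complex and its clients, Smg1, a kinase of nonsense-mediated decay, was called lower (-1.05, adjusted p = 0.00549). Of 11 measured JIP and JNK genes, the scaffold Mapk8ip1 (-2.30, adjusted p = 0.000406) and the JNK-activating kinase Map2k4 (-2.02, adjusted p = 0.000274) were called lower. In KTL vs WTL none of the genes just named was called by limma, with Tsc1 at 0.26, Rraga at -0.20, Ddit4 at 0.34, Smg1 at -0.56, Mapk8ip1 at 0.54 and Map2k4 at -0.079.

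The 2 partner genes called higher were Pkhd1, the gene of fibrocystin in the list of Pkd1 (1.17, adjusted p = 0.000973), and Unc13d, a Munc13 relative in the list of Baiap3 (1.28, adjusted p = 0.000451). They were at -0.33 and -0.063 in KTL vs WTL. Of the 5 measured genes of lysosomal acidification and enzyme targeting, 0 were called by limma or SAM in KNL vs WNL. Of these genes 3 had an unadjusted p under 0.05 there, as had 10996 of all probes. Ostm1, the subunit that ClC-7 needs, was at -0.60 there (adjusted p = 0.018) and at 0.07 in KTL vs WTL (adjusted p = 0.865). Mus81, the nuclease that EME2 joins in human cells, was at 0.10 in KNL vs WNL and at 0.34 in KTL vs WTL.

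The probes most like the called ones were found by Pearson's r of log2 values over the 8 arrays, as a description. For Clcn7 they were Tmem33 (r = 0.988), Surf4 (r = 0.981) and Gabrb2 (r = 0.979), and 31 of 13155 probes of other genes were above 0.95. For Unkl (mMC020637) they were Gla (r = 0.998), Olfr736 (r = 0.998) and Dtx2 (r = 0.994), and 603 of 13154 were above 0.95. The 8 points share their arrays and pools, and for Unkl the correlation rests on the KNL arrays, the only ones with high values.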

How the data were processed

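RNA of the left hippocampus, pooled from 3 mice per group, was labeled with Cy5 and hybridized to the Mouse Whole Genome OneArray. The authors floored low intensities and quantile normalized the arrays, and the intensities they deposited are linear. Deposited values still reached down to 7.23, so a floor of 100, quantile normalization and log2 were applied here. Array medians were 481 to 482, and 6.64% to 6.86% of the probes of an array were at the floor, which limits what dim probes can show. Left out were 13334 of the 29922 probes, which had no value on any array. Of the 16588 kept, 13183 had 1 gene symbol and 3405 none. Symbols of the platform annotation can be old, and neighbors and partners were also matched through RefSeq synonyms.

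A single model of the 8 arrays with 4 group means gave all comparisons (limma 3.58.1, R 4.3.3, 4 residual and 2.45 prior degrees of freedom). A fold against a group at the floor is a lower bound. Genes are named by a rule: the listed genes with every probe, Cacna1h, partner genes called in either genotype comparison, neighbors within 25 places called over both states, and the 3 probes most like each called one. Spsb3, Ndufb10, Ostm1, Mus81 and the named cell type markers lie outside this rule and were chosen after their values were seen. The members and lists were chosen with earlier results of these data known. Alternatives were the floor, normalization, filter, test (Significance Analysis of Microarrays, SAM, over its 6 splits), thresholds, replicate block and arrays left out. Promoter windows were read with Python 3.11.15. The right hippocampi are not analysed here.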

Additional observations from a re-analysis of the deposited data

Results flagged for a closer look

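The genotype difference itself differed between trained and naïve mice, by the interaction term of limma at an adjusted p under 0.05, for 4 of the 10 probes, against 53.3% of all probes. It was -1.78 for Unkl by probe mMC020637 (adjusted p = 0.013) and -0.94 for Unkl by probe mMR026247 (adjusted p = 0.0148). It was 0.61 for Clcn7 (adjusted p = 0.0448), where both KNL arrays were at the floor, and -0.92 for Mapk8ip3 (adjusted p = 0.0388). With 2 arrays per group, no group was large enough to test single arrays as outliers.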

How the results depend on the processing

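Leaving out 1 array at a time, 1 to 3 of the 10 probes were called in KNL vs WNL (2 with all arrays), 0 to 1 in KTL vs KNL (1), 1 to 2 over both states (1) and 0 to 1 for the interaction (0). Without a floor the counts were 3, 2, 2 and 1 in the same order, and with a floor of 50 they were 3, 2, 2 and 1. A floor of 200 gave 0 in KNL vs WNL, KTL vs KNL and over both states. Cyclic loess gave 3 in KNL vs WNL, as did SAM, and 2 over both states, and a filter on mean intensity over 200 gave 1 for the interaction. An adjusted p under 0.05 at any fold gave 6 in KNL vs WNL, 1 in KTL vs WTL, 5 in KTL vs KNL, 1 in KTL vs WNL, 2 over both states and 4 for the interaction. The test against 1.5-fold gave 1 in KNL vs WNL and 0 in KTL vs KNL. The labels do not say whether the replicate numbers pair the samples. Correlations of same-numbered deviations ran from -0.25 to 0.43, which cannot decide it. With the replicate block 1 was called in KNL vs WNL and 0 in KTL vs KNL. The call on Clcn7 in KNL vs WNL was lost only with a floor of 200 (-0.97). That on Unkl was lost with a floor of 200 (adjusted p = 0.0265), the block (0.0133), the 4 arrays compared (0.0313) and the test against 1.5-fold (0.0724). Eme2 was called in KNL vs WNL by SAM, with cyclic loess (-1.37, adjusted p = 0.00847), by limma on the 4 arrays compared and without either WTL array, and over both states without WTL replicate 2 (-1.42, adjusted p = 0.0025). The causes were not tested.

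Of 77 results on single probes 17 changed sign under an alternative, 32 values in all, and none of them was called in the report. With a floor of 200 Eme2 was at 0.13 in WTL vs WNL and at -0.13 for the interaction. The other changes of sign came from leaving out 1 array. In WTL vs WNL the lowest and highest values were -0.19 and 0.11 for Clcn7, -0.65 and 0.45 for Eme2, -0.69 and 0.17 for Telo2, -0.12 and 0.23 for Tsc2 and -0.066 and 0.27 for Unkl (mMR026247). In KTL vs WNL they were -0.36 and 0.48 for Unkl (mMC020637), -0.035 and 0.31 for Tsc2, -0.36 and 0.037 for Mapk8ip3 and -0.15 and 0.38 for Pkd1. Over both states they were -0.14 and 0.062 for Mapk8ip3 and -0.11 and 0.43 for Pkd1. For the interaction they were -0.34 and 0.51 for Telo2, -0.45 and 0.65 for Eme2 and -0.34 and 0.28 for Cacna1h. They were -0.088 and 0.054 for Gnptg (mMR026822) in KNL vs WNL, -0.17 and 0.42 for Gnptg (mMC024298) in KTL vs KNL and -0.026 and 0.19 for Tsc2 in KTL vs WTL. The count of all probes called in KNL vs WNL, 3383, was 1819 with a floor of 200, 2187 with the 4 arrays compared, 1293 in the test against 1.5-fold and 10068 at an adjusted p under 0.05, and 1400 to 3423 leaving out 1 array. Leaving out 1 array gave 241 to 3513 for the interaction (3610 with all arrays), 930 to 3379 in KTL vs KNL (3332), 116 to 531 over both states (477) and 0 to 12 in KTL vs WTL (4). The lowest counts came without KTL replicate 2 for the interaction and KTL vs KNL, and without KTL replicate 1 over both states. The other genes within 50 places called in KNL vs WNL, 5 in the report, numbered 2 to 33 over these settings, and those within 25 places, 0 in the report, numbered 0 to 11. The median change of all probes in KNL vs WNL, 0.16, was 0.00 with a floor of 200 and 0.086 with cyclic loess. Dim probes set the depth limit, since values under the floor carry no order.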
